A study of Mus musculus with 2 samples.

Results

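The genes of caveolae and of the membrane-shaping proteins that work beside them were described in mouse heart: the caveolins Cav1, Cav2 and Cav3, the cavins Cavin1, Cavin2, Cavin3 and Cavin4, the EHD proteins Ehd2 and Ehd4, and the amphiphysin relative Bin1. They were chosen by name, as 10 of the 55536 mouse genes in the deposited gene tables, and all 10 were found, each under 1 gene identifier. Together they have 31 annotated transcripts. The samples were heart tissue of 2 female B6CASTF1/J mice, a first cross between inbred C57BL/6J and CAST/EiJ mice, at an age of 36 days. No treatment or mutation is named in the labels, and the 2 libraries form 1 group with no other group to set against it. Replicate 1 came from animal 3 and replicate 2 from animal 4, although the labels give both the same donor identifier. Each library was made from 300 ng of total RNA with ERCC spike-ins, synthetic RNAs added as a scale.

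Caveolae are small flask-shaped pits of the plasma membrane, abundant in endothelial cells, adipocytes and muscle. Caveolins are inserted into the membrane and form the caveolar coat together with cavins, which bind it from the cytosol; Cav1 and Cav2 are made in many cell types, whereas Cav3 and Cavin4 are known mainly from striated muscle. EHD proteins are membrane-bound ATPases, of which Ehd2 sits at the caveolar neck, and Bin1 bends membrane into tubules and is known in cardiomyocytes for its role at the transverse tubules. Heart tissue mixes all of these cell types, so that for every level below, fewer cells of a type and less RNA per cell cannot be told apart.

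The libraries held 38845613 and 38168674 expected counts of mouse genes, where an expected count is an estimated number of reads with shared reads divided between genes. Cardiomyocyte markers were high in both libraries, with Myh6 at 8321 and 8958 TPM, whereas 0 of 6 skeletal muscle markers reached 1 TPM in both libraries. TPM is a transcript abundance scaled for length and to the same sum in each library. Markers of red blood cells and of brown fat stood apart between the animals. The 6 erythroid markers summed to 36363 TPM in replicate 1 and 11882 TPM in replicate 2, and the 4 brown adipocyte markers to 97.5 and 29.9 TPM.

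Cav1 carries 2 coding starts, and its transcripts are split between them in the data below, so both starts are shown. The longer protein, called alpha, begins in the first exon of Cav1-201 (mm10, plus strand, chr6:17306450-17306479). The shorter one, called beta, begins inside the next exon (plus strand, chr6:17307944-17307973). The first 30 coding bases of each were read from the annotated transcripts, with the start codon in capitals.
Cav1 alpha: ATGtctgggggcaaatacgtagactccgag
Cav1 beta: ATGgcagacgaggtgactgagaagcaagtg
The alpha form has 178 residues and the beta form 147. The first 31 residues, or 93 coding bases, belong to alpha alone.

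The 250 bases before the upstream and the downstream start of transcription of Cav1 were taken from RefSeq (GRCm38.p6). The shares of Cav1 given below are by coding start, not by start of transcription. Cav1-203, which has the beta coding start, begins at neither of these starts of transcription but 943 bases after the upstream one. The windows of Cav3 and Cavin4, the pair known from striated muscle, are shown for comparison. RefSeq promoters were matched for 8 of the 10 genes, not for Bin1 and Cavin3. Capitals mark matches, on either strand, to the GC box GGGCGG, the CCAAT box CCAAT, the TATA box TATAAA, and the MEF2 and CArG motifs.
Cav1 upstream start (plus strand, chr6:17306085-17306334): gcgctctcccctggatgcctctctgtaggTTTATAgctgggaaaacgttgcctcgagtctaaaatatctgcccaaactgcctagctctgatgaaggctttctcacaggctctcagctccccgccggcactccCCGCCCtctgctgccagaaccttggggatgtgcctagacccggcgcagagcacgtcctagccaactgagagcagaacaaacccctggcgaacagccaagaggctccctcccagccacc
Cav1 downstream start (plus strand, chr6:17307390-17307639): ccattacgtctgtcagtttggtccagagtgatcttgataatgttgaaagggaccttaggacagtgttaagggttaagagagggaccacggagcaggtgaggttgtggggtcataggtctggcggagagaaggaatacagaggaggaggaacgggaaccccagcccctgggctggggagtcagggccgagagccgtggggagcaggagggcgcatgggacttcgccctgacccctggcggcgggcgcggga
Cav3 (plus strand, chr6:112459255-112459504): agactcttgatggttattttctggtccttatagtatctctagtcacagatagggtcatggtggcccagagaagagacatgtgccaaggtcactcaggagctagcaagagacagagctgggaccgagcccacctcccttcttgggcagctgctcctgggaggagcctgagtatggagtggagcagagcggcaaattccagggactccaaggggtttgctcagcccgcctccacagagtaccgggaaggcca
Cavin4 (plus strand, chr4:48663264-48663513): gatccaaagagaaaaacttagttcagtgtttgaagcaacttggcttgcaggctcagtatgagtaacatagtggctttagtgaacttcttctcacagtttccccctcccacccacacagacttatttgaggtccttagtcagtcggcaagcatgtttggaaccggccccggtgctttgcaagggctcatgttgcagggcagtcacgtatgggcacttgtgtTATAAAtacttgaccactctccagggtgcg
Cavin4 held TATAAA with 24 bases between it and the start. The upstream window of Cav1 held, both on the reverse strand, a GC box with 112 bases and a TATAAA with 215 bases between it and the start. The downstream window of Cav1 and the window of Cav3 held none of the 5 motifs. Over all 32851 RefSeq windows of 250 bases, 32.7% held the GC box, 33.8% the CCAAT box, 12.4% TATAAA, 2.92% the MEF2 motif and 1.47% the CArG motif. The E-box CANNTG, not capitalised, occurred in all 4 windows and in 66.2% of all windows. These matches describe letters only and say nothing of binding.

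All 10 genes were detected, at 1 TPM or more in each library, and they spanned a 48.8-fold range of mean TPM. Ehd4 was the highest and Bin1 the lowest in both libraries. The order ran Ehd4, Cav1, Cavin1, Cavin2, Cavin4, Ehd2, Cav3, Cav2, Cavin3 and Bin1, and it was the same in replicate 1 and replicate 2. Of the 9 pairs of neighbours in this order, 7 had values that did not overlap over the libraries. Those of Cavin4 and Ehd2, and of Ehd2 and Cav3, overlapped. A second quantification of the same libraries, made by the authors from the reads with a transcript index, gave the same order except that Cav3 stood above Ehd2. There, the values of Cav1 and Cavin1, and of Cavin4 and Cav3, overlapped, while those of Cav3 lay above those of Ehd2 in both libraries. The median of the 11031 nuclear protein-coding genes detected in both libraries was 8.72 TPM, and 8 of the 10 genes lay above it.

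**Figure D1:**
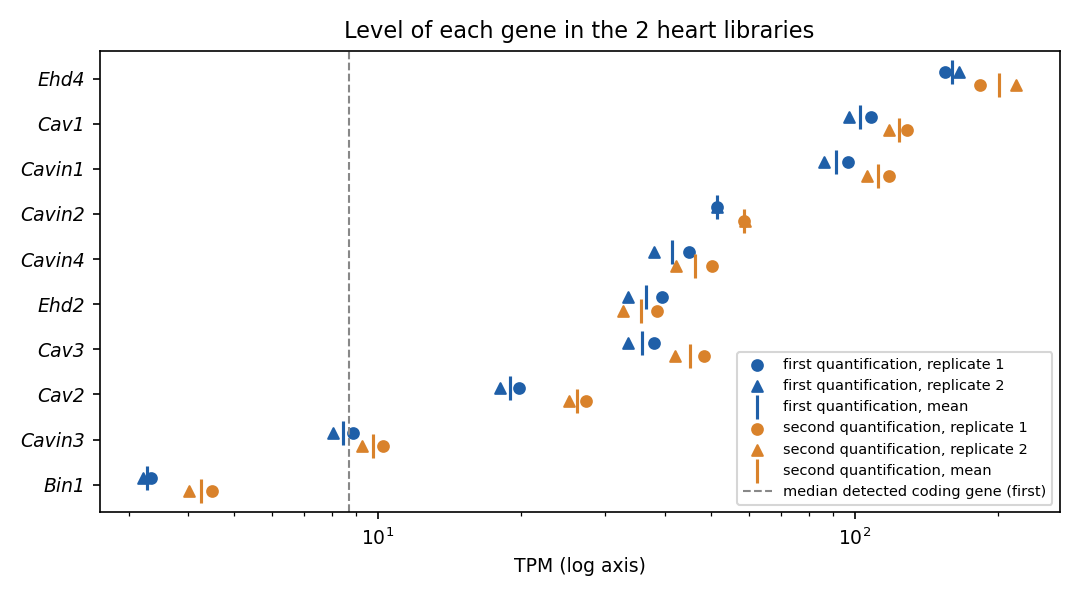
Level of each of the 10 genes in TPM on a log axis, with replicate 1 as circles, replicate 2 as triangles and the mean as a vertical tick, for the first (blue) and second (orange) quantification. Ehd4 stands highest and Bin1 lowest, and the dashed line marks the median detected coding gene of the first quantification at 8.72 TPM, with Cavin3 close to it.

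Cav1, the main structural protein of caveolae outside muscle, was the most abundant caveolin. It measured 108 TPM in replicate 1 and 97.4 TPM in replicate 2, a mean of 103 ± 7.59 (SD, n = 2), from 6685 and 6030 expected counts. This placed it at the 95.2nd percentile of the detected coding genes. Cav3, the muscle caveolin, measured 38.0 and 33.5 TPM, a mean of 35.7 ± 3.21 (SD, n = 2), from 1264 and 1078 expected counts. Cav2, which needs Cav1 to reach the cell surface, measured 19.8 and 18.1 TPM, a mean of 18.9 ± 1.24 (SD, n = 2), from 1538 and 1419 expected counts. In each library Cav1 lay above Cav3 and Cav3 above Cav2, with no overlap. Cav2 received more reads than Cav3 but a lower TPM, since its transcripts are longer, with effective lengths of 2470 bases for Cav2 and 1058 bases for Cav3 in replicate 1.

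Cav1 made 65.3% ± 0.174 (SD, n = 2) of the summed TPM of the caveolins. Cav3 made 22.7% ± 0.303 and Cav2 12.0% ± 0.130 (SD, n = 2). These shares differed between the animals by less than 1 percentage point. The caveolin sum itself was 166 TPM in replicate 1 and 149 TPM in replicate 2. Cav2 (chr6:17281185-17289115) and Cav1 (chr6:17306335-17341452) lie on the same strand, 17219 bases apart, and Cav3 lies on the same chromosome at chr6:112459505-112472872.

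The transcripts of Cav1 divided between the alpha and beta starts, and which of them led depended on the quantification. In the first quantification, transcripts with the alpha start summed to 64.7 and 63.5 TPM and those with the beta start to 40.6 and 32.2 TPM. Alpha thus made 62.6% ± 3.79 (SD, n = 2) of the TPM of Cav1 and beta 35.3% ± 3.17 (SD, n = 2). In the second quantification alpha summed to 55.1 and 52.9 TPM and beta to 72.1 and 64.1 TPM, so that alpha made 43.8% ± 1.46 and beta 55.1% ± 1.11 (SD, n = 2). The animals did not overlap within either quantification, but the direction turned between quantifications, and the data give no order of alpha and beta that holds in both. The 2 main transcripts are alike over most of their length. Cav1-201 has a first exon of 145 bases that Cav1-202 lacks, and Cav1-202 starts 1305 bases downstream of it and runs into the exon they share.

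**Figure D2:**
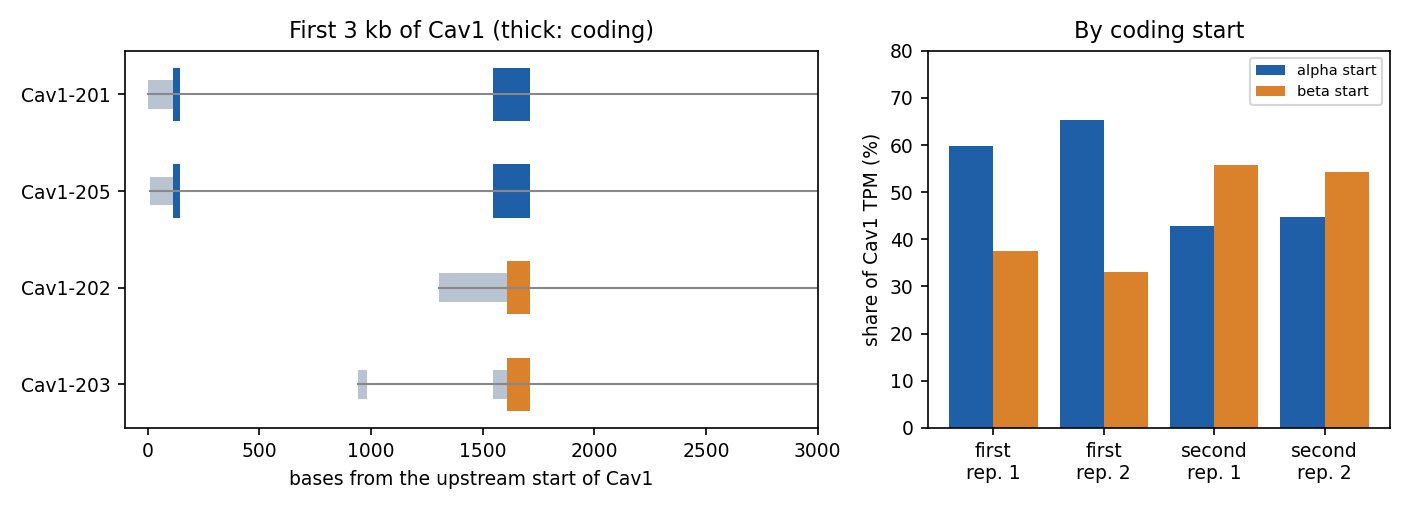
Left, the first 3 kb of 4 Cav1 transcripts in bases from the upstream start, with exons as thin and coding parts as thick boxes, alpha in blue and beta in orange. Right, the share of Cav1 TPM by coding start in each library and quantification: alpha is the larger in both libraries of the first quantification (62.6% on average) and beta in both libraries of the second (55.1%).

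Among the cavins, Cavin1, without which caveolae do not form, was the highest at 96.8 and 86.1 TPM, a mean of 91.5 ± 7.57 (SD, n = 2), from 9960 and 8498 expected counts. Cavin2, a phosphatidylserine-binding cavin, measured 51.4 and 51.5 TPM, the closest agreement between the animals among the 10 genes in TPM. Cavin4, the muscle cavin, measured 44.8 and 38.0 TPM, a mean of 41.4 ± 4.80 (SD, n = 2). Cavin3, also known as a binding protein of protein kinase C delta, measured 8.86 and 8.07 TPM from 435 and 384 expected counts and stood at the 49.0th percentile of the detected coding genes. All 4 cavins kept their order in both libraries with no overlap between neighbours.

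Cavin1 made 47.4% ± 0.772, Cavin2 26.7% ± 1.83, Cavin4 21.5% ± 1.06 and Cavin3 4.39% ± 0.00220 (SD, n = 2) of the summed TPM of the cavins. The sums of the cavins were 202 and 184 TPM, or 1.22 and 1.23 times those of the caveolins. Of the pair of the muscle form and its widely expressed relative, Cavin4 made 31.1% ± 0.715 (SD, n = 2) of Cavin4 and Cavin1, and Cav3 made 25.8% ± 0.307 (SD, n = 2) of Cav3 and Cav1. The cavins lie apart in the genome, Cavin1 at chr11:100956733-100970887 and Cavin2 at chr1:51289126-51302960. Cavin4 lies at chr4:48663514-48673502 and Cavin3 at chr7:105480083-105482300. An experimentally untested model, Gm45667, covers 374 exonic bases of Cavin3, 22.5% of all, on the opposite strand. Gm45667 measured 0.05 and 0.08 TPM.

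Ehd4, an EHD protein of endosomes, was the highest of the 10 genes. It measured 155 and 166 TPM, a mean of 160.3 ± 7.56 (SD, n = 2), from 13509 and 14306 expected counts, at the 96.9th percentile of the detected coding genes, and was higher in replicate 2. Ehd2, the EHD protein of the caveolar neck, measured 39.5 and 33.5 TPM, a mean of 36.5 ± 4.22 (SD, n = 2), from 5495 and 4477 expected counts. The family's other members, taken as its denominator, were Ehd1 at 53.5 and 37.9 TPM and Ehd3 at 1.13 and 1.15 TPM. Ehd4 made 65.9% ± 5.19 (SD, n = 2) of the summed TPM of Ehd1 to Ehd4, and Ehd2 15.0% ± 1.26 (SD, n = 2). Ehd4 lies at chr2:120089175-120154606 and Ehd2 at chr7:15946958-15967567, both on the minus strand.

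Part of the Ehd4 level rests on short noncoding transcripts. The coding transcript Ehd4-201 measured 114 and 125 TPM, 74.4% ± 1.40 (SD, n = 2) of the gene. The processed transcripts Ehd4-202, Ehd4-203 and Ehd4-204, of 541, 393 and 455 bases, took 25.6% ± 1.40 (SD, n = 2) of the TPM but 3.65% of the expected counts. In the second quantification they took 31.04% ± 4.45 of the TPM and 1.87% of the counts. There, Ehd4-203 stood at 0 TPM in replicate 1 and at 18.3 TPM in replicate 2, from 57.8 estimated counts. Ehd4-201 alone would still be the highest of the 10 genes in both quantifications, at 119 ± 7.88 TPM and 138 ± 8.23 TPM (SD, n = 2).

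Bin1 (chr18:32377230-32435737) was the lowest of the 10 genes. It measured 3.35 and 3.22 TPM, a mean of 3.29 ± 0.0919 (SD, n = 2), from 193 and 180 expected counts, at the 20.5th percentile of the detected coding genes. The shares of its 6 transcripts differed between the quantifications, and the part of the low depth in this was not tested. Bin1-205 led with 65.9% ± 0.671 (SD, n = 2) of the TPM in the first quantification and 49.7% ± 14.7 (SD, n = 2) in the second. An exon of 72 bases, absent from Bin1-205, lay in transcripts that made 34.1% ± 0.671 of the TPM in the first quantification and 46.0% ± 20.8 (SD, n = 2) in the second. The animals gave 31.3% and 60.7% in the second quantification, so that the share of this exon was not settled. A noncoding gene, A830052D11Rik, covers 256 exonic bases of Bin1 on the opposite strand and was listed at 0 TPM in both libraries. For comparison, Ryr2, the calcium release channel opposite the transverse tubules, measured 387 and 356 TPM.

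Of the 10 genes, Cav3, Cavin2, Cavin3 and Cavin4 have a single annotated transcript. For the other 6, the leading transcript was the same in both quantifications. In the second, the lead was narrow for Cav1, with Cav1-201 at 37.2% ± 0.0466 and Cav1-202 at 34.7% ± 1.21 (SD, n = 2) of the TPM. For Bin1 in replicate 2 of the second quantification, Bin1-205 had 39.3% and Bin1-202 36.7%. The leader of Cav2 was the coding Cav2-201, with 94.3% ± 3.85 of the TPM in the first and 73.6% ± 0.902 (SD, n = 2) in the second quantification. Cavin1-201 made 95.3% ± 0.779 and 93.0% ± 0.962 (SD, n = 2) of Cavin1. Ehd2-201 made 87.1% ± 0.586 (SD, n = 2) of Ehd2 in the first quantification, and all of it in the second. The remainder in the first was Ehd2-202, of 375 bases, at 4.94 and 4.47 TPM from 42.9 and 37.6 expected counts. The second quantification gave Ehd2-202 0 estimated counts in both libraries, so the quantifications differed in the reads assigned to it. They also scale for length differently. For Ehd2-202 the effective length was 276 bases in the first and 93.3 bases in the second quantification of replicate 1, whereas for Ehd2-201, of 5119 bases, it was 5020 and 4790 bases.

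**Figure D3:**
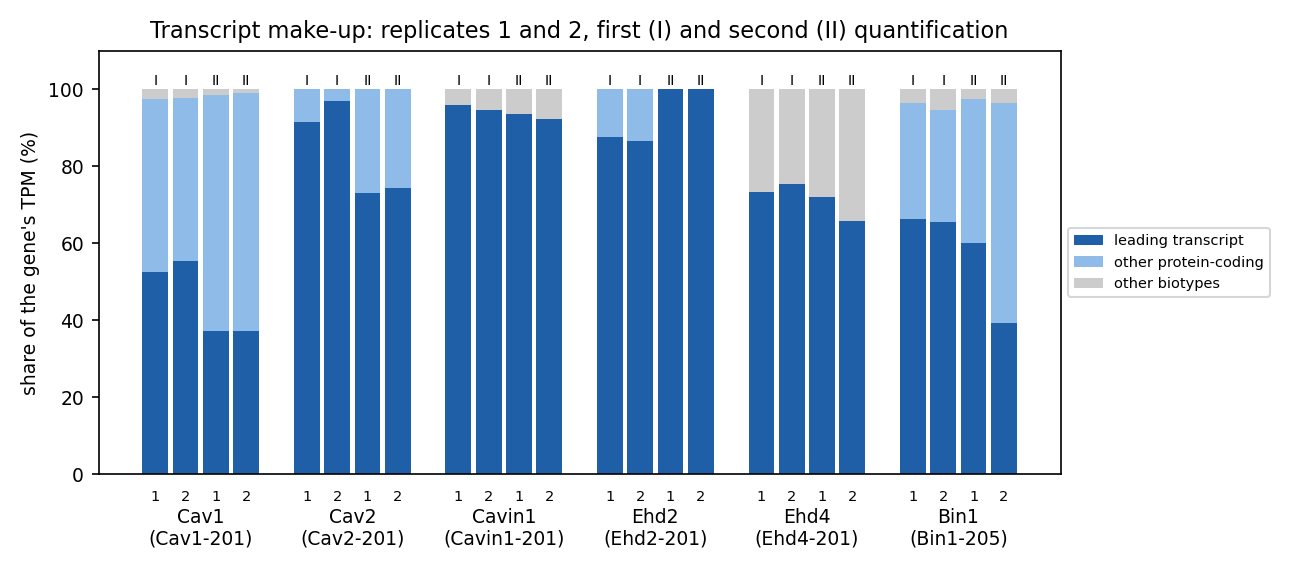
Share of each gene's TPM in its leading transcript (dark blue), other protein-coding transcripts (light blue) and other biotypes (grey), for replicates 1 and 2 in the first (I) and second (II) quantification. Cavin1 is nearly all Cavin1-201 throughout, whereas the share of Cav1-201 falls from 53.9% to 37.2% on average between the quantifications.

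None of the 10 genes differed by as much as 2-fold between the animals. The reads of the 2 libraries were set against each other gene by gene with a two-sided exact binomial test, which compares these libraries and not conditions. At an adjusted p under 0.05 and a ratio of at least 2, it called 0 of the 10, beside 1.53% of all 13745 genes tested. By the adjusted p alone, 3 of the 10 were lower in replicate 2, where 11.8% of all genes were, and 1 was higher, where 10% of all genes (1381 of 13745) were. The unadjusted p was under 0.05 for 6 of the 10 and for 31.7% of all genes. edgeR's exact test with a common dispersion called 0 of the 10 and 1.13% of all genes, and its lowest unadjusted p among the 10 was 0.408. The dispersion comes from these 2 libraries themselves, which makes their usual difference count as noise, and ratios as small as these could hardly pass it.

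The 4 that passed by the adjusted binomial p were small differences read at high depth. On the log2 scale, replicate 2 over replicate 1, Ehd4 was higher by 0.19 (95% interval 0.15 to 0.22, adjusted p = 4.8e-25, exact binomial test). Ehd2 stood at -0.19 (-0.25 to -0.14, adjusted p = 7.31e-10, exact binomial test), Cavin4 at -0.18 (-0.26 to -0.10, adjusted p = 0.00012) and Cavin1 at -0.13 (-0.17 to -0.084, adjusted p = 6.16e-08) by the same exact test. These directions hold with the TMM scaling of edgeR, DESeq2 size factors and total counts, but Ehd2, Cavin4 and Cavin1 turned to 0.050, 0.062 and 0.12 when the spike-in counts set the scale. That scaling shifted every gene alike and moved the median of all genes from 0.00047 to 0.24. The 3 lie below the median gene under any such scaling, so this is no separate support. With total counts as the scale 5 of the 10 passed lower and 1 higher, beside 22.8% and 5.32% of all genes. With spike-ins 0 passed lower and 5 higher, beside 2.66% and 55.2% of all genes.

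The other 6 genes did not pass. Cav1 stood at -0.046 (-0.096 to 0.0045), Cav2 at -0.013 (-0.12 to 0.092) and Cav3 at -0.13 (-0.25 to -0.0084). Cavin2 stood at 0.061 (0.0025 to 0.12), Cavin3 at -0.077 (-0.28 to 0.12) and Bin1 at 0.0025 (-0.30 to 0.30). The median over the 10 was -0.061, beside 0.00047 over all genes tested, where the median size of the ratio was 0.13. Over the 8773 genes with counts summing to at least 500, the median was -0.0055 and the median size 0.096. Bin1 and Cavin3, with the fewest reads, had the widest intervals.

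Markers of endothelial cells, of fat cells and of red blood cells did not all move alike between the animals. Of the 10 endothelial markers, 5 passed the adjusted binomial p lower in replicate 2 and 0 higher, none by 2-fold. Among all 13745 genes tested, 1625 passed lower and 1381 higher by this p alone. The endothelial markers had a median log2 ratio of -0.066, with a range from -0.28 to 0.16. Their sums were 714 and 659 TPM, from Fabp4 at 395 and 378 TPM to Tek at 15.1 and 14.8 TPM. Of the 6 white adipocyte markers, 4 held enough counts to be tested. Of these, 3 were called lower in replicate 2: Adipoq at 11.5 and 4.24 TPM, Plin1 at 15.3 and 4.45 TPM, and Cidec at 13.7 and 5.05 TPM. The list ran from Lep at 0.11 and 0.08 TPM to Cfd at 28.6 and 23.0 TPM, and it summed to 70.3 and 37.4 TPM. Of the 4 brown adipocyte markers, 3 were called lower: Ucp1 at 52.6 and 7.95 TPM, Dio2 at 1.21 and 0.47 TPM, and Elovl3 at 2.86 and 0.25 TPM. Cidea, the highest of them, stood at 40.8 and 21.3 TPM. All 6 erythroid markers, Hba-a1, Hba-a2, Hbb-bs, Hbb-bt, Alas2 and Slc4a1, were called lower, from -1.52 to -1.94 on the log2 scale. Over all genes tested, 1.53% were called in either direction.

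No marker of the other cell types was called at 2-fold. By the adjusted binomial p alone, 2 of 8 cardiomyocyte markers were lower in replicate 2 and 5 higher, and 2 of 8 fibroblast markers were lower and 4 higher. Among all 13745 genes tested, 1625 were lower and 1381 higher by this p alone. The log2 ratios were small, from -0.087 to 0.17 for the cardiomyocyte markers and from -0.10 to 0.19 for the fibroblast markers. Of 5 smooth muscle markers 1 was lower and 0 higher, of 6 pericyte markers 1 was lower and 1 higher, and of 8 macrophage markers 2 were lower and 1 higher. The cardiomyocyte markers summed to 26856 and 27189 TPM, with Ryr2 the lowest of the 8, and the fibroblast markers to 751 and 759 TPM, from Gsn at 338 and 349 TPM to Tcf21 at 4.50 and 4.46 TPM. The smooth muscle markers summed to 158 and 141 TPM, from Acta2 at 62.8 and 51.0 TPM to Cnn1 at 3.85 and 2.64 TPM. The pericyte markers summed to 235 and 230 TPM, from Rgs5 at 111 and 103 TPM to Cspg4 at 6.20 and 6.01 TPM. The macrophage markers summed to 115 and 110 TPM, from Lyz2 at 50.7 and 53.4 TPM to Cx3cr1 at 1.49 and 1.11 TPM. Of the skeletal muscle markers, 0 held enough counts to be tested. Tnni2 was the highest of them at 1.14 and 0.57 TPM, and Myh4 was at 0 in both libraries. The part of any of these cell types in the ratios of Cavin1, Cavin4, Ehd2 and Ehd4 was not tested.

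**Figure D4:**
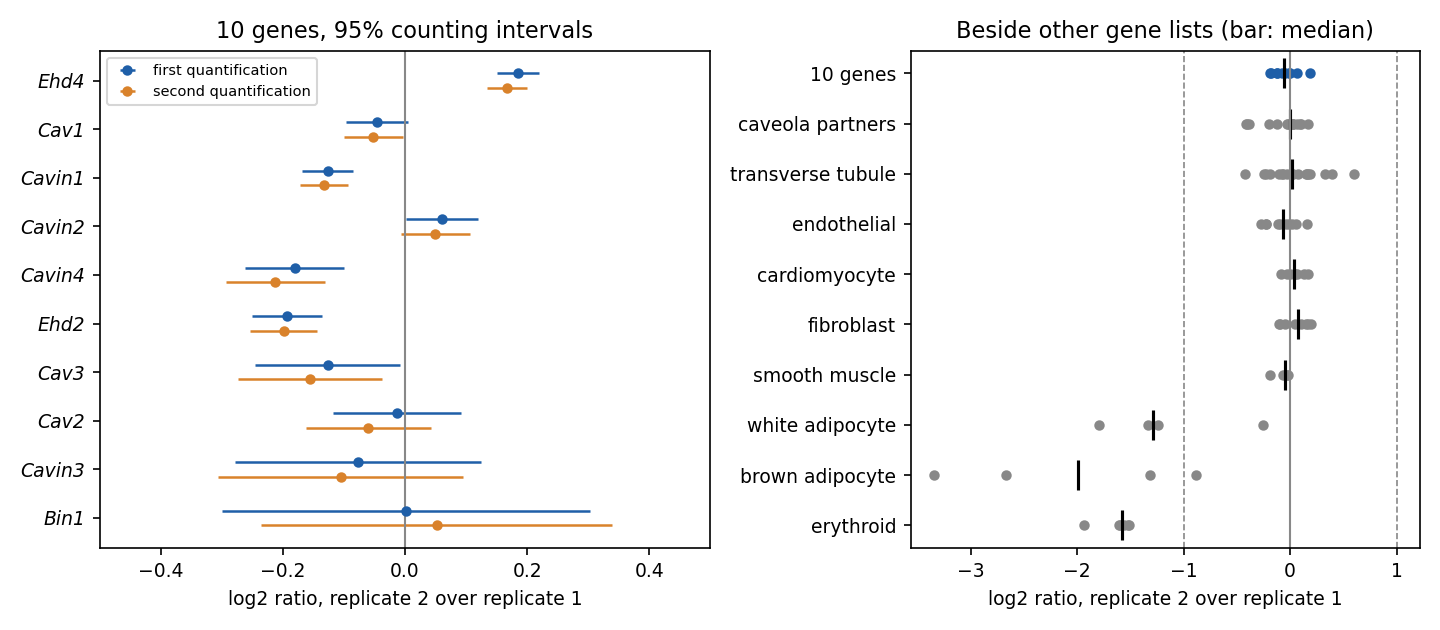
Left, log2 ratio of replicate 2 over replicate 1 for the 10 genes with 95% counting intervals in both quantifications. Right, the same ratio for each gene of the 10 and of other lists, with the list median as a black bar and 2-fold as dashed lines: the 10 genes lie between -0.19 and 0.19, while the median is -1.99 for brown adipocyte and -1.58 for erythroid markers.

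Among 15 partners of caveolae and related membrane proteins, 14 were detected and none was called at 2-fold. Of the 14 partners with enough counts to be tested, 5 were lower and 2 higher in replicate 2 by the adjusted binomial p alone. Among all 13745 genes tested, 1625 were lower and 1381 higher. The median log2 ratio of the partners was 0.00029. Popdc2, a cAMP-binding Popeye protein of the muscle membrane, was the highest at 168 and 159 TPM. Pacsin1, a neuronal F-BAR protein, was the lowest at 0.10 and 0.04 TPM. Ehd1 stood at -0.38 (-0.45 to -0.31), a larger ratio than that of any of the 10.

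Among 19 genes of the transverse tubule, of BAR relatives and of membrane repair, 17 were detected and none was called at 2-fold. Of the 18 genes of this list with enough counts to be tested, 5 were lower and 3 higher in replicate 2 by the adjusted binomial p alone. Among all 13745 genes tested, 1625 were lower and 1381 higher. The median log2 ratio of the list was 0.019. Tcap, the titin cap, was the highest at 912 and 1149 TPM. Amph, the neuronal amphiphysin, was the lowest at 0.25 and 0.39 TPM, below Bin1 in both libraries.

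The members of each family are similar in protein but could be told apart in sequence. Translated from the annotated coding sequences of their leading transcripts, Cav1 and Cav3 were identical at 64.2% of aligned residues, Cav1 and Cav2 at 36.0%, and Ehd2 and Ehd4 at 68.8%. The cavins were identical at 27.0% to 44.2%. The longest run of residues that Cav1 and Cav3 share was 12, residues 67 to 78 of Cav1 and 40 to 51 of Cav3. Its coding bases are shown as the place where the pair is most alike in protein, with differing bases in capitals.
Cav1 residues 67 to 78: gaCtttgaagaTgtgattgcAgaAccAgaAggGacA
Cav3 residues 40 to 51: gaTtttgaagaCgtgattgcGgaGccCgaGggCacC
Even here, 8 of 36 bases differ, and the longest identical run of coding bases between Cav1 and Cav3 was 15. For 9 of the 10 genes, no stretch of 31 bases from their transcripts occurred in the transcripts of another gene on the same strand. For Ehd2, 26 of 5116 such stretches did, or 0.508%.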

How the data were processed

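Total RNA of heart was sequenced in 2 libraries. Per the deposited description files, the authors used mouse build mm10 with annotation M21; which programs, and in which version, is not given in the sources used here. Deposited gene and transcript tables of the first quantification hold expected counts, which are not normalized, TPM, posterior mean TPM and FPKM, which are scaled to length and library, and per transcript the percent of its gene, per the file headers. The second quantification holds estimated counts and TPM per transcript, summed here per gene. The percent column was not printed; shares were computed from TPM. Both used a C57BL/6J reference, so reads of the CAST allele carry mismatches, whose effect was not measured. Of 55536 mouse genes, 55450 had a symbol in the second quantification's table; 97 spike-in rows served only as a scale, and 26248 rows named by a number were left out.

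Expected counts were rounded to whole numbers and compared by an exact two-sided binomial test against effective library sizes (TMM, edgeR 4.0.16). Its p-values were adjusted by Benjamini-Hochberg over all genes whose counts summed to 50 or more. Log2 ratios have 0.5 added to each count. A call needed an adjusted p under 0.05 and a 2-fold ratio. edgeR's exact test used the common dispersion of both libraries (biological coefficient of variation 0.113). DESeq2 1.42.0 gave other size factors. The binomial test was tested on simulated data that held sampling noise alone, with no variation between animals. A count of 0 allows up to 3 counts, or 0.0772 CPM in replicate 1 and 0.0786 CPM in replicate 2. Intervals are at 95% and cover counting error alone: the tables carry no molecular identifiers that would tell repeat reads of 1 molecule apart. The labels call the libraries biological replicates; they were treated as separate animals, as numbered, and SDs measure only the spread between these samples.

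The 10 genes and all lists were chosen with earlier results of these data known. From the other lists, the text names the genes with the highest and the lowest mean TPM and those called; Myh6, Ryr2, Ehd1 and Ehd3 are named as the marker check, the reference for the transverse tubule and the rest of the EHD family. The erythroid list as first written held 1 more gene, which is not reported here. The shared stretch of Cav1 and Cav3 was chosen after the sequences were compared. RefSeq protein sequences were not used here: lengths and identities come from annotated coding sequences (global alignment, Biopython 1.88). Promoter windows are from RefSeq, GRCm38.p6. Windows that overlap annotated exons are not shown.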

Additional observations from a re-analysis of the deposited data

How the results depend on the processing

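All 10 genes were detected in the second quantification, with the posterior mean TPM, at 0.5 TPM and in either library alone, and 9 at 5 TPM, where Bin1 was lost. The count of genes called at 2-fold was 0 under each scaling, count minimum and quantification tried. By the adjusted p alone, 4 of the 10 passed with TMM scaling and with DESeq2 size factors, 6 with total counts and 5 with spike-ins. In the second quantification 5 of the 10 passed, beside 3114 of 14050 genes. Scaled to spike-ins, where the median gene stood at 0.24, the log2 ratio of Cav1 turned to 0.20, of Cav2 to 0.23, of Cavin1 to 0.12, of Cavin4 to 0.062 and of Ehd2 to 0.050; the cause was not tested. Cav3 passed the adjusted p with total counts (-0.20) and in the second quantification (-0.15), and Cav1 with total counts (-0.12). With spike-ins, Cav1, Cav2, Cavin1, Cavin2 (0.30) and Ehd4 (0.43) passed as higher, and Cavin4 (adjusted p = 0.186, exact binomial test) and Ehd2 (adjusted p = 0.132, exact binomial test) no longer passed.

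The share of Cav1 among the caveolins was 63.4% in the second quantification and 70.6% of expected counts, which are not divided by length, and 65.2% to 65.4% in either library alone. Cavin1 made 49.4% and 54.7% of the cavins by the same 2 measures and 46.9% to 48.0% by library. Ehd4 made 71.4% of Ehd1 to Ehd4 in the second quantification and 62.2% to 69.6% by library. Scaling TPM to nuclear protein-coding genes raised every level, that of Cav1 to 262 TPM. No paired analysis was possible because the 2 libraries form 1 group. Bin1 had under 200 expected counts in each library, and the effect of this depth on its transcript shares was not tested.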
